A study of Mus musculus with 6 samples.

Results

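Interferon receptors and the proteins that carry their signal into the nucleus were followed through 9 genes of the 26264 listed in the count files. They are Ifnar1, Ifnar2, Ifngr1, Ifngr2, Jak1, Stat2, Irf1, Irf7 and Irf9, listed by gene symbol for their place in the pathway. All 9 were listed in all 6 libraries and passed the filters on low counts. Bulk RNA sequencing had been done on immortalized brown preadipocytes, a line from the stromal vascular fraction of interscapular brown fat of wild-type Bl6N mice that was immortalized with the large T antigen of SV40, and on adipocytes differentiated from them. The cells were pretreated for 48 h with FGF8 (5.5 nM), a fibroblast growth factor, or left untreated, and were harvested at the end of the pretreatment (day 0), on day 3 or on day 9. The last time point is named D7 in the sample labels. It was taken as the 7 days on differentiation medium that the study counts, with 2 induction days, as day 9. The controls are untreated in the labels and vehicle-treated in the methods, and the growth protocol filed with the samples describes white preadipocytes from inguinal fat and several FGFs, whereas the titles describe brown cells and FGF8.

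There was 1 culture, and 1 library, for each of the 6 conditions. A difference between FGF8 and untreated cells of the same day therefore has no replicate check and is given without a p-value. The libraries held 16403254 to 38551551 counts and 16329 to 18050 detected genes. Normalized counts are counts scaled by the size factor of the library. A log2 difference is FGF8 minus untreated on log2(normalized count + 1), and its 95% exact binomial interval covers counting error only. The preadipocyte markers Pdgfra, Pdgfrb, Cd34, Dlk1 and Thy1 and, from day 3, the adipocyte markers Adipoq, Fabp4, Plin1, Cidea and Lpl were present, whereas the markers of macrophages and of lymphocytes were low or at 0.

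Interferons reach a cell through paired receptor chains. IFNAR1 and IFNAR2 together bind the type I interferons, IFNGR1 and IFNGR2 bind the type II interferon IFN-gamma, and the kinase JAK1 sits on a chain of each receptor. In the type I branch, STAT2 joins a partner STAT and the DNA-binding protein IRF9 in a complex that switches on antiviral genes at interferon-stimulated response elements, IRF7 is a target of that complex and in turn drives transcription of interferon genes, and IRF1 is a target of the type II branch that acts through gamma-activated sites.

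The promoters were read first for the sequence elements that these factors bind. In the 250 bases before the annotated start of the canonical transcript (GRCm39, GENCODE M39), the letters GAAANNGAA, the core of the interferon-stimulated response element, were found in 1 member, and TTCNNNGAA, the gamma-activated site, which reads the same on both strands, in 2 members. Both strands were searched and no match overlapped another. Among 19091 promoter windows of protein-coding genes of the same length, 7.4% held the first motif and 7.2% the second. The stretches around the 3 matches are shown because they are where Stat2, Ifnar2 and Irf1 hold these letters, with the match in capitals and 30 bases on each side.
Stat2, chr10:128106116-128106184, plus strand: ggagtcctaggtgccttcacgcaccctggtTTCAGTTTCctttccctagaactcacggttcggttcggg
Ifnar2, chr16:91169427-91169495, plus strand: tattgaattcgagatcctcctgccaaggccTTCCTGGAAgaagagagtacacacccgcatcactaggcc
Irf1, chr11:53660721-53660789, plus strand: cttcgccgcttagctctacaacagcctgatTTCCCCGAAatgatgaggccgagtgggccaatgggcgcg
The Stat2 match lies on the opposite strand, 206 to 198 bases before the start. The Ifnar2 match lies 214 to 206 bases and the Irf1 match 90 to 82 bases before the start of its canonical transcript. An antisense long noncoding RNA, Gm74496, shares 405 of the 4678 exon bases of Irf1. Irf7 had the largest log2 difference of the 9 genes, and the whole window before its start held neither string of letters.
Irf7, chr7:140846399-140846648, minus strand: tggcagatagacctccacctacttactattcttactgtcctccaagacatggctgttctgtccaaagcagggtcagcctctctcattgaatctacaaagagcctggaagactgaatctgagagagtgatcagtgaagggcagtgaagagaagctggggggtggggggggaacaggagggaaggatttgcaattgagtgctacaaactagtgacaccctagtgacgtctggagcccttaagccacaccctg
A match is a description of letters in this window, and the absence of a match says nothing of sites elsewhere. The window of Irf9 lies inside the annotated gene, which starts at 55841028, whereas its canonical transcript starts at 55841442.

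Of the 27 differences between FGF8 and untreated cells, 9 genes on each of 3 days, 25 were below 0. At day 0, 8 of the 9 genes were lower after FGF8, with a median log2 difference of -0.70. At day 3, 8 were lower and the median was -0.50, and at day 9 all 9 were lower and the median was -0.43. Over all genes whose normalized counts averaged at least 20 in the pair of libraries, the median was 0.05 at day 0 and 0.08 at days 3 and 9. The members that were lower on all 3 days, by any size, numbered 7, all but Ifngr1 and Ifngr2, against 21.6% of 13256 genes. The members were chosen with earlier results of these data known, so comparisons of their counts with all genes are not independent of that choice. Counting intervals lay below 0 for 7, 8 and 8 members on days 0, 3 and 9. Those of Jak1 at day 0 and Irf1 at day 9 included 0. At least 2-fold lower were 2 members at day 0 (Stat2 and Irf7), against 10.8% of all genes at that day. There were 3 at day 3 (Ifnar2, Jak1 and Irf7), against 12.1%, and 2 at day 9 (Ifnar2 and Irf7), against 8.74%. No member was 2-fold higher on any day, and Irf7 alone was at least 2-fold lower on all 3 days.

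**Figure D1:**
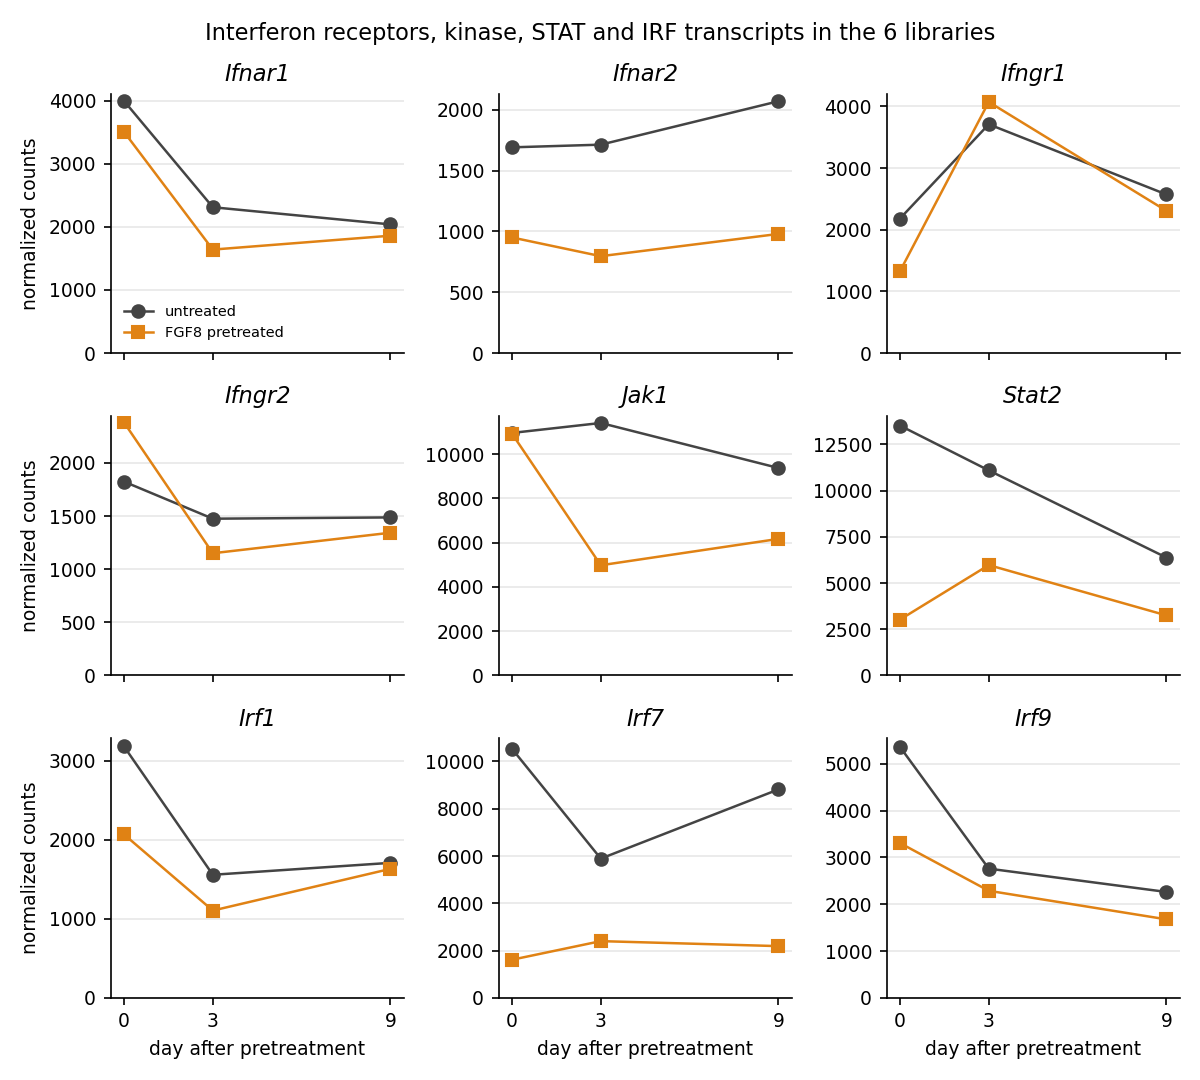
Normalized counts (vertical axes, from 0, with a scale of their own for each gene) of the 9 genes on days 0, 3 and 9 after the pretreatment, 1 point per library, in untreated (circles) and FGF8-pretreated (squares) cells. The lines for Irf7, Stat2 and Ifnar2 stay apart on all 3 days, those for Jak1 meet at day 0, and those for Ifngr1 and Ifngr2 cross.

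The type I receptor differed between its chains. Ifnar2, which binds interferon with high affinity and docks STAT2, had 1692, 1714 and 2071 normalized counts in untreated cells at days 0, 3 and 9, and 951, 797 and 980 in FGF8-pretreated cells. Every FGF8 library was below every untreated one. The log2 differences were -0.83 (95% interval -0.97 to -0.70), -1.10 (-1.22 to -0.99) and -1.08 (-1.18 to -0.98), so that 56.2%, 46.5% and 47.3% of the untreated level was left. Ifnar2, Irf7 and Ifnb1 are among the transcripts that the study itself picked out, so their decreases are not independent of that choice.

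Ifnar1, the signaling partner of Ifnar2 that carries the kinase TYK2, had 3995, 2311 and 2039 normalized counts in untreated and 3505, 1640 and 1860 in FGF8-pretreated cells. It was lower on each day by less than 2-fold, 1.14-fold, 1.41-fold and 1.10-fold on days 0, 3 and 9, and the FGF8 library of day 0 was above the untreated libraries of days 3 and 9. Within a library, the number of Ifnar2 counts per Ifnar1 count needs no normalization between libraries. It went from 0.424 (95% interval 0.395 to 0.454) in untreated to 0.271 (0.250 to 0.294) in FGF8-pretreated cells at day 0, from 0.742 (0.691 to 0.796) to 0.486 (0.452 to 0.522) at day 3 and from 1.02 (0.964 to 1.07) to 0.527 (0.491 to 0.565) at day 9. The ratio was thus lower after FGF8 on each day. In both groups it was highest at day 9, but in FGF8-pretreated cells the intervals of days 3 and 9 overlapped.

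Ifngr1, the ligand-binding chain of the type II receptor, lies on chromosome 10 (19467697 to 19485977). It had 2181, 3710 and 2572 normalized counts in untreated and 1326, 4072 and 2307 in FGF8-pretreated cells. Both libraries of day 3 were the highest of their group. The log2 difference was -0.72 at day 0 (95% interval -0.83 to -0.60), 0.13 at day 3 (0.07 to 0.20) and -0.16 at day 9 (-0.23 to -0.09). Scaled by total counts, the difference at day 3 was 0.03. Ifngr2, the chain that brings JAK2 to the receptor, had 1824, 1475 and 1487 normalized counts in untreated and 2381, 1150 and 1343 in FGF8-pretreated cells. Its log2 difference was 0.38 at day 0 (0.28 to 0.49), the largest increase of any member on any day, then -0.36 (-0.47 to -0.25) and -0.15 (-0.24 to -0.05). At day 0 the chains thus differed in opposite directions. There were 1.2 Ifngr1 counts per Ifngr2 count in untreated cells (1.11 to 1.29) and 0.557 in FGF8-pretreated cells (0.516 to 0.601). At day 3 the order of the groups was the other way round, at 2.52 (2.35 to 2.69) against 3.54 (3.35 to 3.74). By day 9 the ratios were 1.73 (1.64 to 1.83) and 1.72 (1.62 to 1.83), with intervals that overlapped almost entirely.

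On chromosome 16 of GRCm39, Ifnar2 (91169618 to 91202723), Il10rb (91203012 to 91224600), Ifnar1 (91281942 to 91305789) and Ifngr2 (91343906 to 91362512) lie in this order on the plus strand within 192.9 kb. Il10rb, a receptor chain shared by interleukin-10 and the type III interferons, had 1682, 704 and 963 normalized counts in untreated and 874, 378 and 554 in FGF8-pretreated cells. Its log2 differences of -0.94, -0.90 and -0.79 were nearer to those of Ifnar2, the next gene, than to those of Ifnar1 or Ifngr2 on each day. In GENCODE M39, Gm21970, a read-through gene that joins both loci, shares 747 of the 3742 exon bases of Ifnar2 on the same strand, and it is not in the count files. How reads on those bases were counted is not given in the sources used here.

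Jak1, the kinase of both receptors, lies on chromosome 4 (101008838 to 101122487, minus strand). It had 10959, 11409 and 9375 normalized counts in untreated and 10928, 4980 and 6171 in FGF8-pretreated cells. At day 0 the FGF8 library held 99.7% of the untreated level, and the interval of the log2 difference ran from -0.05 to 0.04. At day 3 it held 43.7% (log2 difference -1.20, 95% interval -1.24 to -1.15) and at day 9 65.8% (-0.60, -0.64 to -0.56). Among the 9 genes, Jak1 was the one whose difference was within counting error at day 0 and over 2-fold at day 3. Of its 10826 exon bases, 1950 overlap Raver2 on the other strand, which had at most 37 counts in any library.

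Stat2, on chromosome 10 (128106352 to 128128735), was the member with the second largest difference at day 0. It had 13515, 11091 and 6376 normalized counts in untreated and 3020, 5970 and 3249 in FGF8-pretreated cells. All 3 FGF8 libraries were below all 3 untreated libraries. After FGF8 the level was 4.47-fold lower at day 0 (log2 difference -2.16, 95% interval -2.23 to -2.10), 1.86-fold lower at day 3 (-0.89, -0.94 to -0.85) and 1.96-fold lower at day 9 (-0.97, -1.03 to -0.92). The untreated level was lowest at day 9, whereas the FGF8 level was lowest at day 0.

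Irf9, the DNA-binding partner of STAT2, lies on chromosome 14 (55841028 to 55847812). It had 5360, 2759 and 2261 normalized counts in untreated and 3306, 2286 and 1676 in FGF8-pretreated cells. It was lower on each day, 1.62-fold, 1.21-fold and 1.35-fold, with every interval below 0. The rate of Stat2 counts per Irf9 count went from 2.52 (95% interval 2.43 to 2.62) to 0.914 (0.864 to 0.966) at day 0, from 4.02 (3.83 to 4.21) to 2.61 (2.51 to 2.72) at day 3 and from 2.82 (2.71 to 2.94) to 1.94 (1.84 to 2.04) at day 9. The transcripts of these partners were therefore not lower in equal measure, with Stat2 further down than Irf9 on each day. Of the 5801 exon bases of Irf9, 282 are shared with Rnf31 on the same strand, which had log2 differences of -0.92, 0.07 and 0.07.

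Irf7, on chromosome 7 (140842619 to 140846398, minus strand), had 10538, 5891 and 8818 normalized counts in untreated and 1612, 2399 and 2188 in FGF8-pretreated cells. The lowest untreated library was above the highest FGF8 library. The FGF8 level was 6.53-fold lower at day 0 (log2 difference -2.71, 95% interval -2.80 to -2.62), 2.45-fold lower at day 3 (-1.30, -1.36 to -1.23) and 4.03-fold lower at day 9 (-2.01, -2.07 to -1.95). On the 3 days, 2.66%, 7.91% and 2.67% of all genes had a lower log2 difference. In the untreated cells Irf7 was lowest at day 3, and in the FGF8-pretreated cells it was lowest at day 0.

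Irf7 was also set against Irf9 and against Irf3, a related factor that is present before any interferon signal. Irf7 counts per Irf9 count went from 1.97 to 0.488 at day 0, from 2.14 to 1.05 at day 3 and from 3.90 to 1.31 at day 9. Irf7 counts per Irf3 count went from 16.7 (95% interval 15.2 to 18.5) to 2.82 (2.53 to 3.15) at day 0, from 5.20 (4.84 to 5.59) to 1.63 (1.54 to 1.72) at day 3 and from 7.63 (7.24 to 8.04) to 1.75 (1.64 to 1.86) at day 9. In each of the 6 comparisons the ratio was lower after FGF8 and the intervals did not meet. Irf3 itself had log2 differences of -0.14, 0.38 and 0.12.

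Irf1, on chromosome 11 (53660812 to 53669200), had 3183, 1558 and 1709 normalized counts in untreated and 2069, 1105 and 1633 in FGF8-pretreated cells. On days 0 and 3 it was 1.54-fold and 1.41-fold lower. At day 9 it held 95.6% of the untreated level, and the interval of the log2 difference (-0.15 to 0.02) included 0, so this difference was within counting error. Gm12216, an antisense RNA that shares 619 of its 4678 exon bases, had 2 to 38 counts per library.

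**Figure D2:**
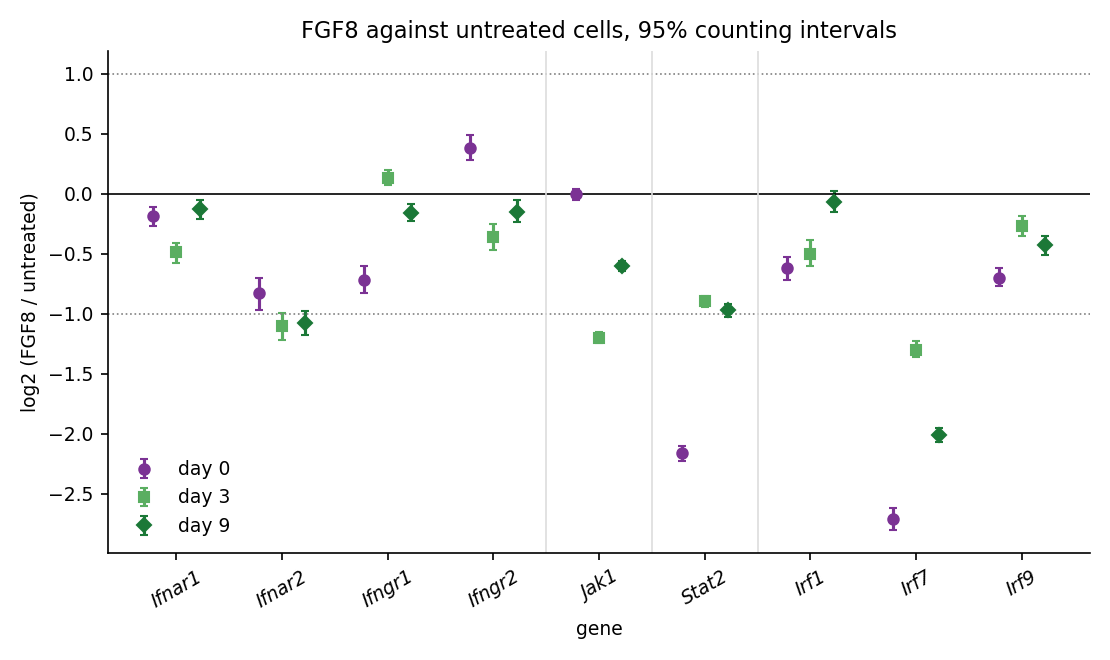
Log2 difference between the FGF8 and the untreated library (vertical axis) of each gene at day 0 (circles), day 3 (squares) and day 9 (diamonds), with 95% exact binomial intervals of counting error as bars. The dotted lines mark 2-fold, and Irf7 lies below the lower one on all 3 days, at -2.71, -1.30 and -2.01.

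**Figure D3:**
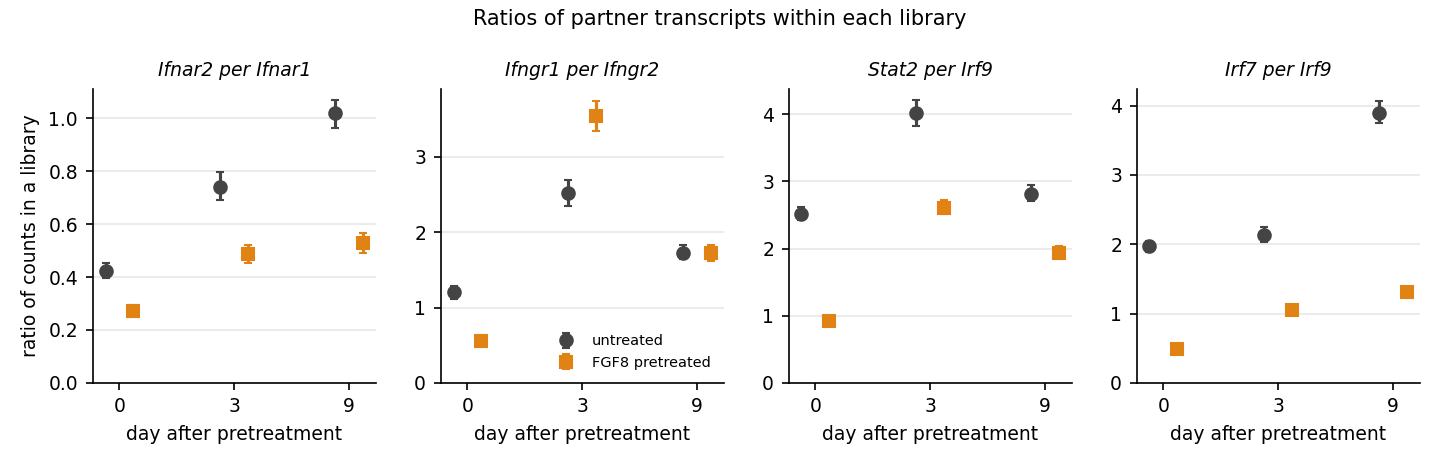
Ratio of the counts of partner genes within a library (vertical axes, from 0) on days 0, 3 and 9 in untreated (circles) and FGF8-pretreated (squares) cells, with 95% exact binomial intervals as bars. The FGF8 ratio lies below the untreated one on each day in 3 of the 4 pairs, and for Ifngr1 per Ifngr2 it lies below at day 0, above at day 3 and level at day 9.

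Some cell type markers moved with the members. The summed normalized counts of the 5 preadipocyte markers were 104300, 29370 and 18690 in untreated cells on days 0, 3 and 9, and 32180, 8630 and 5622 in FGF8-pretreated cells. At day 0 Pdgfra gave 46472 of the 70982 untreated counts, and Thy1 went the other way, with 1888 counts in untreated cells and 3458 after FGF8. The 5 adipocyte markers summed to 8417, 334000 and 489300 in untreated and to 2207, 579500 and 573800 in FGF8-pretreated cells, at day 0 mostly from Lpl, with Fabp4 at 112 and 139 counts. Of 9 macrophage markers, summed normalized counts ran from 234.2 to 312.9 in the untreated and from 140.6 to 190.8 in the FGF8 libraries. Adgre1 was at 0 throughout and Ptprc had at most 1 count, whereas Cd14 (32 to 128 counts), Cd68 (27 to 141) and Csf1r (4 to 61) were present in every library. The 4 endothelial markers summed to 1620 in untreated and 71.69 in FGF8-pretreated cells at day 0, and to 34.39 to 210.0 later. Of the counts behind the sums at day 0, Kdr gave 877 and Tek 222 in untreated cells, and Kdr 6 and Tek 33 after FGF8, with Pecam1 and Cdh5 at 17 counts or fewer in every library. The 5 markers of lymphocytes, natural killer cells and plasmacytoid dendritic cells summed to at most 5 counts per library. The part of these markers in the differences of the 9 genes was not tested, and in bulk RNA fewer cells of a type and less RNA per cell cannot be told apart.

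Whether FGF8 had a common effect over the 3 days was asked of 14569 genes with the quasi-likelihood test of edgeR, with the 3 days serving both as blocks and as replicates. A difference that varies between days counts as error there, and 2 residual degrees of freedom remained. Ifnar2 fell (log2 fold change -1.03, SE 0.132, adjusted p = 0.0499, lower on 3 of 3 days), and it was the only member past the threshold of 0.05, against 1.25% of the genes tested that fell. The other members did not pass. Irf7 had a larger estimate with a larger error (-2.02, SE 0.295, adjusted p = 0.0611), as did Stat2 (-1.36, SE 0.300, adjusted p = 0.108). Irf9 was at -0.49 (SE 0.136, adjusted p = 0.142), Irf1 at -0.42 (SE 0.163, adjusted p = 0.218) and Jak1 at -0.62 (SE 0.268, adjusted p = 0.244). The estimates of Ifnar1, Ifngr1 and Ifngr2 were -0.29, -0.27 and -0.06. Unadjusted p-values were under 0.05 for 4 members, Ifnar2, Irf7, Stat2 and Irf9.

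The call of Ifnar2 lies next to the threshold, and over 7 other fits its adjusted p ran from 5.61e-06 to 0.742. It was lost with other size factors, without the day block, without day 3 and without day 9, each of which left 0 members called by edgeR with 3 or 4 at an unadjusted p under 0.05. Without day 0, 4 members passed (Ifnar2, Jak1, Stat2 and Irf7), and 3 passed with the Wald test of DESeq2 (Ifnar2, Stat2 and Irf7).

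**Figure D4:**
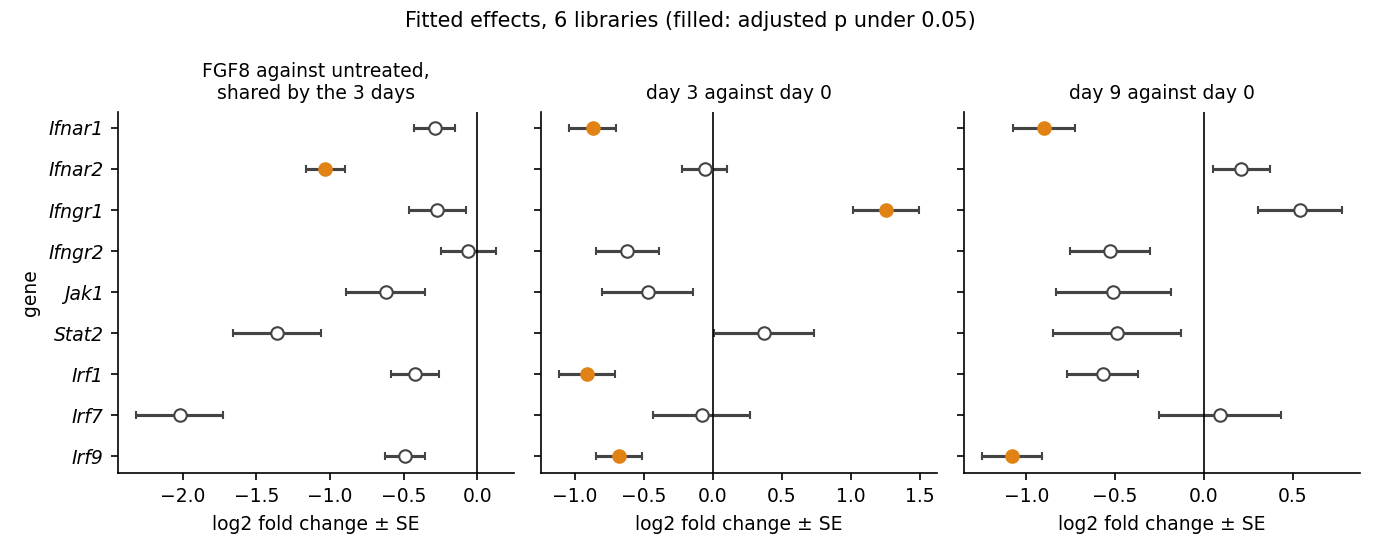
Log2 fold changes of the 9 genes (horizontal axes) from the edgeR fit to all 6 libraries, for FGF8 against untreated cells over the 3 days, day 3 against day 0 and day 9 against day 0, with bars of 1 SE and filled points at an adjusted p under 0.05. Filled points are Ifnar2 in the first panel, Ifnar1, Ifngr1, Irf1 and Irf9 in the second, and Ifnar1 and Irf9 in the third.

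The same fit gave the change with differentiation, with treatment as the block and the untreated and the FGF8 library of a day in place of replicates. From day 0 to day 3, Ifnar1 fell (log2 fold change -0.87, SE 0.173, adjusted p = 0.0160), as did Irf1 (-0.91, SE 0.201, adjusted p = 0.0210) and Irf9 (-0.68, SE 0.167, adjusted p = 0.0271). Among all genes tested, 19.8% fell and 26.2% rose. Ifngr1 rose by 1.25 on the log2 scale (SE 0.239, adjusted p = 0.0148). The other 5 members did not pass, with estimates from -0.62 for Ifngr2 to 0.37 for Stat2. The estimate of Stat2 joined a fall in untreated cells (13515 to 11091 normalized counts) with a rise in FGF8-pretreated cells (3020 to 5970). Without the treatment block, 2 members passed, and Irf1 and Irf9 had an adjusted p of 0.0692 and 0.134 (over the 4 other edgeR and DESeq2 fits, 0.000933 to 0.0692 and 0.00507 to 0.134).

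From day 0 to day 9, Irf9 fell (log2 fold change -1.08, SE 0.168, adjusted p = 0.00714 in edgeR) and so did Ifnar1 (-0.90, SE 0.173, adjusted p = 0.0121), against 24.8% of all genes that fell. Another 29.2% rose, and Ifngr1, at 0.54 (SE 0.235, adjusted p = 0.108), was not among them. The count of members that fell, 2 of 9, was near the share of all genes. The estimates of Irf7 were near 0 on both days (-0.08 and 0.09), and for Ifnar2 they were -0.06 and 0.21. In the type I receptor, Ifnar1 passed the threshold for differentiation and Ifnar2 passed it for FGF8, narrowly, at an adjusted p of 0.0499 in edgeR. Ifnar1 was also lower after FGF8 on each of the 3 days, with log2 differences of -0.19, -0.49 and -0.13. Whether the chains differ in either effect was not tested.

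The levels of different genes were compared per kb of exon, as normalized counts divided by the length of all annotated exons of the gene. Irf7 had the highest mean over the 6 libraries, 1390 per kb, and the widest range, from 426 to 2790, a 6.54-fold spread. This order rests on the untreated libraries, where Irf7 was first at days 0 and 9 (2790 and 2330 per kb) and Stat2 at day 3 (1760, with Irf7 at 1560). In the FGF8 libraries Jak1 was first at day 0 (1010 per kb) and Ifngr1 at days 3 and 9 (1430 and 810), with Irf7 at 426, 635 and 579. By the mean over the 6 libraries, Stat2 followed at 1140 per kb (479 to 2140), Ifngr1 at 947 (466 to 1430) and Jak1 at 829 (460 to 1050). Irf9 was at 507 per kb (289 to 924) and Irf1 at 401 (236 to 680). The receptor chains Ifnar2, Ifngr2 and Ifnar1 came last at 365 (213 to 554), 357 (255 to 527) and 315 (202 to 492) per kb. Every gene in this order overlapped in range with the next. For each of the 9 genes the lowest level was in an FGF8 library. With the length of the longest transcript in place of all exons, Jak1 came before Ifngr1, and Ifnar1 before Ifngr2 and Ifnar2.

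The gene outside the pathway with the most similar course over the 6 libraries was named for each member. Likeness was the root mean square difference of log2(normalized count + 1), centred on the mean of each gene, among 11320 genes averaging at least 100 normalized counts. It is a description over 6 libraries. For Ifnar1 it was Rnh1 (0.0357), for Ifnar2 Paqr7 (0.102), for Ifngr1 Vgll4 (0.0568), for Ifngr2 Foxj3 (0.0668) and for Jak1 Amdhd2 (0.102). Zfp383 (0.0814) was nearest to Irf1, and Carmil1 (0.0908) to Irf9. Stat2 and Irf7 had no gene as close, with Plpp3 at 0.189 and Afap1l2 at 0.207.

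The interferons themselves were at the edge of detection. Ifnb1, which encodes IFN-beta, had 28, 2 and 10 counts in the untreated libraries of days 0, 3 and 9, and 0, 1 and 2 in the FGF8 libraries. At day 0 it was 10.7-fold lower after FGF8 with the FGF8 library set to the floor of 3 counts that a count of 0 allows. That value takes the 28 untreated counts without error. The binomial interval at day 0, which also covers the counting error of the 28 counts, ended at a log2 difference of -3.03. At day 3 the ratio was 3.63-fold lower with a 95% interval from 0.189 to 214, and at day 9 4.37-fold lower (0.930 to 41.0), so neither could be told from no difference at this depth. Ifng, the gene of IFN-gamma, had 3 counts in the untreated library of day 0 and 0 in the others. Ifna2, Ifna4, Ifnab and Ifnk had at most 2 counts in any library, and Ifna1, Ifne, Ifnl2 and Ifnl3 had 0 counts in all 6. The 9 genes, in contrast, had at least 743 counts in every library.

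Beside the members, 69 further genes of the pathway were read from hand-written lists. Of these, 54 averaged at least 20 normalized counts across the 6 libraries. At least 2-fold lower after FGF8 were 28 of 53, 15 of 54 and 20 of 54 on days 0, 3 and 9. Over all genes the shares were 10.8%, 12.1% and 8.74%. A single gene was at least 2-fold higher, at day 9. The median log2 differences were -1.18, -0.72 and -0.74. In the edgeR test over the 3 days, 1 of the 54 genes was lower, Ifit2 (adjusted p = 0.0429), against 1.25% of all genes tested.

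The targets of the STAT2-IRF9 complex, antiviral genes that stand downstream of 2 of the members, were lower on all 3 days in 12 of 12 cases, against 21.6% of all genes. Their medians were -2.79, -1.10 and -1.46, further from 0 than those of the 9 members on each day. At least 2-fold lower were 12, 7 and 11 of the 12. The study had already reported reduced beta interferon targets in these cells on all 3 days. The counts of this list are therefore not independent of that report. Mx1, an antiviral GTPase, went from 2243 to 74.3 (day 0) and from 547 to 104 normalized counts (day 9). Ifit3, which binds viral RNA with its relatives, went from 27875 to 1649 and from 3387 to 849 on the same days. Oas1a, an oligoadenylate synthase, went from 1858 to 186 at day 0 and from 982 to 267 at day 9. Reads of the Ifit, Mx and Oas genes can be shared with near-identical relatives. Of 10 genes listed as targets of the type II branch, 9 were lower on all 3 days, with medians of -2.52, -0.95 and -0.95. At least 2-fold lower were 9, 4 and 5 of these 10. Ifng had at most 3 counts in any library, and which branch acted on these genes was not tested. The chemokine Cxcl9 went from 1216 to 25.6 normalized counts at day 0, and its log2 differences were -5.52, -1.22 and -2.82. Those of Cxcl10 were -3.51, -0.95 and -0.67. Icam1, an adhesion molecule with 14.6 to 85.2 normalized counts, had log2 differences of -0.72, -1.53 and -2.34.

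Genes that share the members' tasks were read next. Among the other kinases of the receptors, none of 3 was 2-fold different on any day. Tyk2, the partner of JAK1 at the type I receptor, had log2 differences of -0.63, -0.68 and -0.12, Jak2 of 0.52, -0.74 and -0.58, and Jak3 of 0.95, 0.47 and 0.04. Of the other STATs, 4 of 5 passed the filter. Stat3, which serves interleukin-6 and its relatives, had log2 differences of -0.45, -1.11 and -1.0, and those of Stat6 and Stat5b lay between -0.38 and -0.00. Stat5a was at -0.81, 0.63 and 0.09. Of 9 genes listed with the other IRFs, 7 passed. Among these, Irf2bp1, Irf2bp2 and Irf2bpl encode proteins that bind IRF2 and are not IRFs themselves. Irf2, a factor that competes with IRF1 for the same sites, had log2 differences of -1.03, -0.79 and -0.41, and Irf2bpl of 0.04, -0.67 and -0.88. Irf4 at day 0 had 25 counts without FGF8 and 0 with it, and log2 differences of 0.30 and -0.63 later. Irf5 was lower at days 0 and 3 (-1.62 and -1.45) and higher at day 9 (2.28), and was chosen after its values were seen, as the single gene of the lists that was 2-fold higher. Irf2bp2 had log2 differences of 0.53, 0.20 and 0.27.

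The brakes on the pathway, 13 genes of which all passed the filter, had medians of -0.33, -0.43 and -0.29. Of these, 4, 2 and 3 genes were at least 2-fold lower, against 10.8%, 12.1% and 8.74% of all genes. The count at day 3 was near the share of all genes. Socs1, which blocks JAK kinases and is itself a target of interferon, had log2 differences of -1.69, -0.74 and -1.29. Socs2, a brake on growth hormone signaling, was at -1.83, -1.01 and -0.47. Usp18, which displaces JAK1 from IFNAR2, was at -1.51, -0.44 and -1.01, and went from 9189 to 3236 normalized counts at day 0. The phosphatase Ptpn2, which acts on JAK1, was at 0.68, 0.50 and 0.43, the highest of the brakes by mean. Next were Ptpn6, at 0.84, 0.06 and -0.12, and Pias2, at 0.30, -0.07 and 0.08. Of 5 co-factors of transcription 4 passed, and Nlrc5, the activator of antigen presentation genes, was 2-fold lower at day 0 (-1.36, then -0.67 and -0.74), whereas Ep300 and Crebbp lay between -0.30 and 0.13.

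**Figure D5:**
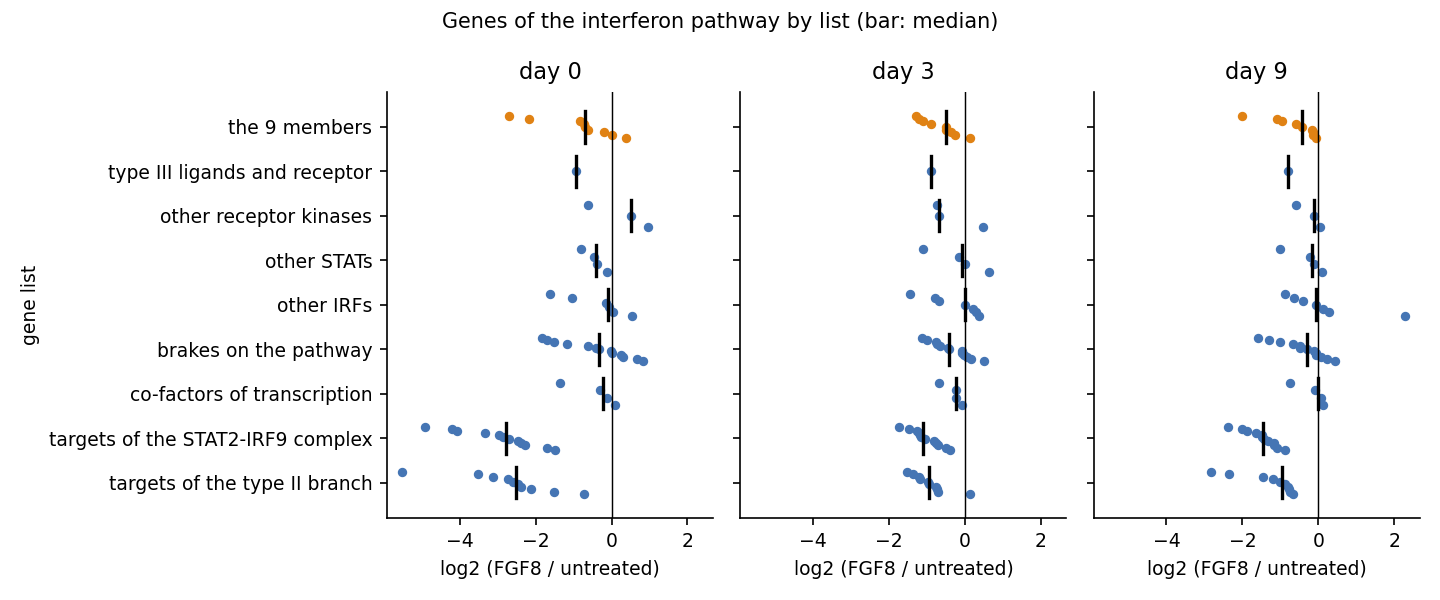
Log2 difference between the FGF8 and the untreated library (horizontal axes) on days 0, 3 and 9 for the 9 genes and for each further list of pathway genes, 1 point per gene averaging at least 20 normalized counts across the 6 libraries and in the pair, and a bar at the median. The targets of the STAT2-IRF9 complex and of the type II branch lie furthest to the left at day 0, at medians of -2.79 and -2.52, and the 9 members lie at -0.70.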

How the data were processed

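Bulk RNA was sequenced with a stranded mRNA kit in 6 libraries, 1 per treatment and day. The authors trimmed the reads with Trim Galore, aligned them to GRCm39 (mm39) with HISAT2 and counted them per gene with featureCounts, and the deposited values are raw counts. Versions, the annotation, the strand setting and the treatment of multimapping reads are not given in the sources used here.

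Groups came from the sample labels. Counts were divided by DESeq2 (1.42.0) median-of-ratios size factors over the 6 libraries. Differences used a pseudocount of 1, the 2-fold rule needed an average of 20 or more normalized counts in the pair, and intervals were exact binomial (Clopper-Pearson). The edgeR (4.0.16) quasi-likelihood test used TMM, filterByExpr and Benjamini-Hochberg adjustment over all 14569 genes, at an adjusted p under 0.05. Since days or treatments stood in place of replicates, its p-values do not measure the spread between cultures. Steps were tested on simulated data.

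Of the 26264 symbols, 23897 (91.0%) matched GENCODE M39, which gave coordinates, exon lengths and transcript starts. Sequences were read from the GRCm39 genome. For each list and direction, up to 3 genes with the largest mean difference were named, with every ligand and Il10rb. Further genes that overlap or neighbour a member were added. Alternatives were TMM, total counts or size factors within each pair, pseudocounts of 0.5 and 5, a mean of 100 or no filter, 1.5-fold and 4-fold rules, the DESeq2 Wald test, RLE size factors in edgeR, no block, leaving out each day, and transcript length. The members and lists were chosen with earlier results of these data known. The values of 2 single genes are not reported here. Scripts ran in Python 3.11.15 (pandas 2.3.3, scipy 1.17.1) and R 4.3.3.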

Additional observations from a re-analysis of the deposited data

Results flagged for a closer look

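Both chains of the type II receptor differed between FGF8 and untreated cells in opposite directions on different days. Ifngr1 had a log2 difference (FGF8 minus untreated) of 0.13 at day 3, against -0.72 at day 0 and -0.16 at day 9. Ifngr2 was at 0.38 at day 0, against -0.36 at day 3 and -0.15 at day 9. Each counting interval excluded 0, although Ifngr1 at day 3 was at 0.03 when scaled by total counts. No test of the differences between days was made, since each value comes from 1 library per condition. No group held 4 or more libraries, so no library was examined as standing apart within its group.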

How the results depend on the processing

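The log2 difference of a member on a day moved by at most 0.11 over 5 other scalings and pseudocounts, the most with total counts at day 3, which shift all genes alike. Of 26 values away from 0.00, 0 changed sign, and Jak1 at day 0 was 0.05 with total counts. The counts of members at least 2-fold lower (2, 3 and 2 on days 0, 3 and 9) came to 4 at day 3 and 3 at day 9 with total counts, and to 3 at day 9 with size factors within each pair, where Stat2 passed 2-fold. They also depended on the fold rule by its construction. There were 6 (day 0) and 4 (day 9) at 1.5-fold, and 0 (day 3) and 1 (day 9) at 4-fold. For the pathway lists (28, 15 and 20 lower), the 1.5-fold rule gave 32 lower genes at day 3 and 31 at day 9, and 3 higher genes at day 0 and 1 at day 3. The 4-fold rule gave 18, 0 and 3 lower genes on the 3 days. With total counts or with no filter 1 pathway gene was higher at day 0, and with no filter 2 were higher at day 9. Members called for the FGF8 effect shared by the days (1 in edgeR) were 3 with the DESeq2 Wald test, 2 with no filter on low counts, and 0 with RLE size factors or with no day block (4 and 3 at an unadjusted p under 0.05). Leaving out each day gave 0 to 4 (4 without day 0, 0 without day 3 or day 9). Members called for day 3 against day 0 (4) were 2 with no treatment block. The cause of these changes was not tested. Calls for day 9 against day 0 were 2 or 3 in each fit. Depth limited the interferon genes most, with at most 28 counts.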
